A study of Caenorhabditis elegans with 2 samples.

Results

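The eggshell and egg activation genes were a named set of 10 protein-coding genes of Caenorhabditis elegans, among 19973 in the nuclear annotation of WBcel235 (Ensembl release 115). The genes were selected by function with peaks of these data already in view, so their peak values are given as a description and no test was applied to them. ChIP-seq, which sequences the DNA that an antibody (here against GFP) pulls down with a tagged protein, recorded where the D2030.7 product sat on the genome of whole young adults aged 62.5 hours. Both samples, which are biological replicates of 1 group per the labels, came from strain RW12302, in which CRISPR placed TY1, EGFP and 3xFLAG tags at D2030.7 on chromosome I, and the worms had been synchronised by starving hatched larvae after bleaching. No second genotype, stage or untagged strain was analysed here, whole worms do not tell which tissue a peak came from, and the deposited peak lists give no read counts, so depth is unknown.

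The nematode eggshell is built by the oocyte and early embryo around fertilization, from the outside in. An outer vitelline layer holds CBD-1, PERM-2 and PERM-4, chitin made by the chitin synthase CHS-1 lies beneath it, and the chondroitin proteoglycans CPG-1 and CPG-2 form the layer next inward. EGG-1 and EGG-2 are oocyte membrane proteins with LDL receptor repeats, and EGG-3 is a phosphatase-like protein without catalytic activity that holds CHS-1 and the kinase MBK-2 at the oocyte cortex until the egg is activated. CPG-3 is a further eggshell chondroitin proteoglycan.

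A summit, the highest point of a peak, was counted for a gene when it lay from 1000 bp upstream to 200 bp downstream of the annotated 5′ end. The conservative pooled list of 2777 peaks retains candidates that both replicates rank alike and, for the most part, high. In it, 6 of the 10 genes had such a summit: cpg-1, cpg-2, cbd-1, egg-1, egg-3 and chs-1. The background was 9.79% of all protein-coding genes (1955 of 19973), or 9.76% without the 10, and since that list was in view when the genes were chosen, nothing is read from the difference. Of the other 4 genes, egg-2 and cpg-3 had a thresholded summit elsewhere, while perm-2 and perm-4 had none in any of the 4 thresholded lists. Each of the 6 genes had a single main-list summit in its window, all 6 summits were intergenic and upstream, none lay within 200 bp of a tRNA, snRNA or snoRNA gene, and none lay in the promoter window of another protein-coding gene.

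The DNA under the summits is shown first, because 4 of the stretches hold the same pair of short words. Each is 151 bases centred on the pooled summit, read from the RefSeq WBcel235 genome in the direction of the gene, for 5 of the genes with a thresholded summit in at least 1 list. Capitals mark 2 short words, TTTGATCT (or its reverse complement AGATCAAA) and GCGGGAA. The stretches lie at chrIII:4489048-4489198, plus strand (cpg-1), chrIV:11372742-11372892, plus strand (cbd-1), chrIII:5727934-5728084, plus strand (egg-1), chrIII:7060671-7060821, minus strand (egg-2) and chrII:10884507-10884657, minus strand (egg-3).
cpg-1: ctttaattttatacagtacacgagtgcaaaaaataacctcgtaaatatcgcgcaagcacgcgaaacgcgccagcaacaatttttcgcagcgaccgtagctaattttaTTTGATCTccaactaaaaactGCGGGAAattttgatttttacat
cbd-1: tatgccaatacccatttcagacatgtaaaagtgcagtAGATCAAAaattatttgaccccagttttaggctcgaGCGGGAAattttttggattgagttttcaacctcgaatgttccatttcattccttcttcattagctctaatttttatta
egg-1: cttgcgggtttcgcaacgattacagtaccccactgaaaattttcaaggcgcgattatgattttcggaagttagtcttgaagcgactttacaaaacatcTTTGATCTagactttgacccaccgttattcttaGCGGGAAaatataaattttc
egg-2: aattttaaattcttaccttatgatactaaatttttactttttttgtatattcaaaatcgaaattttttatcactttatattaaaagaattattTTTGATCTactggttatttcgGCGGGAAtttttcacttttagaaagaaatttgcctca
egg-3: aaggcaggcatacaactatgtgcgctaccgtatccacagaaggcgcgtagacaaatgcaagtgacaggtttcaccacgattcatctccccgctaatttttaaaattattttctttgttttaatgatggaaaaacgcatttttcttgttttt

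Both words were picked out after these sequences were seen, and the windows were widened to 151 bases for the same reason, so they are described without a test. TTTGATCT was found by counting every word of 8 letters, on either strand, in the windows of the 8 genes with a thresholded summit. It was present in 6 of the 8 (cpg-1, cpg-2, cpg-3, cbd-1, egg-1 and egg-2), and no other word was in more than 4. The windows of cpg-3 and egg-2 were centred on pooled candidates outside the main list, unlike the summits they are set beside. At the 1368 other main-list promoter summits away from small RNA genes 2.49% of windows held TTTGATCT, against 2.23% of equally long windows centred at -167 bp from the 5′ end of all 19963 other protein-coding genes. In windows 300 bp to either side of those summits the share was 1.1%. The share at the summits was thus close to that of promoters and above that of their flanks. GCGGGAA, the core of the recognition sequence known for E2F factors, was in 5 of the 8 windows (cpg-1, cpg-2, cbd-1, egg-1 and egg-2). It was in 6.58% of the other main-list promoter windows, 1.43% of their flanks and 1.75% of promoters. Neither word was found anywhere in the 1201-base windows of egg-3, chs-1 or perm-4, which says only that these letters are not there, and perm-2 held GCGGGAA alone, on the opposite strand at -59 bp. A match to letters is not evidence of a factor's binding.

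In 5 genes both words occurred together, in the same order and at close range, and 4 of them are described here. TTTGATCT began at -204 bp from the 5′ end in cpg-1, -148 bp in egg-1 and -145 bp in egg-2, each on the gene's strand, and at -212 bp in cbd-1 on the opposite strand. GCGGGAA followed downstream on the gene's strand, with starts 21 bp apart in cpg-1 and egg-2, 33 bp in egg-1 and 36 bp in cbd-1. In cpg-3 TTTGATCT began at -47 bp, with its centre 3.5 bp from the summit, and GCGGGAA was absent. Among 19973 promoters of 301 bases ending at the 5′ end, 76 held both words and 23 held them in this order within 50 bp. The order, the strand of GCGGGAA and the 50 bp limit follow the pattern already seen in the 5 eggshell genes. These 5 were therefore certain to be among the 23, and nothing is read from their share. The other 18 made up 0.0902% of promoters outside the set. Among them, 5 had a main-list promoter summit: puf-5, a Pumilio-family RNA-binding protein gene of oocytes, with a signal of 198.1, the closely similar kinesin genes klp-15 and klp-16 with 278.6 and 714.1, Y65B4BL.3 with 86.91 and C38D4.10 with 143.5. The summits of klp-15, klp-16 and C38D4.10 also lay in the promoter windows of ctnb-1, smn-1 and gex-5. That of Y65B4BL.3 lay at -587 bp, outside the 301 bases. Reads of kinesin genes this similar may be hard to place. Of TTTGATCT by itself, 8.27% of the 762 promoters that held it had a main-list summit against 9.85% of those that did not. For GCGGGAA these shares were 19.3% of 668 promoters and 9.46% of the rest. The promoters counted for each word include 6 of the eggshell genes, from whose sequences the words were picked. The genes egg-1 and egg-2 encode related proteins, as do cpg-1 and cpg-2, so these promoters may not be independent of each other.

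**Figure D1:**
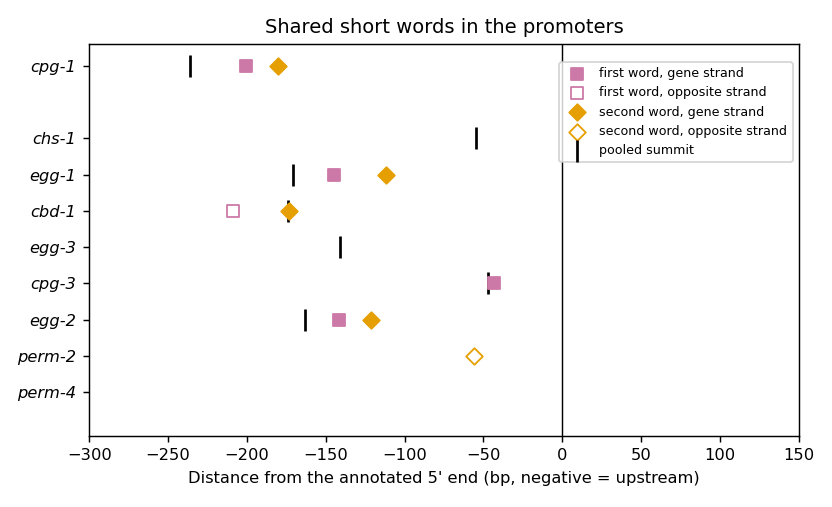
Position of the 2 short words and of the pooled summit along the promoters of 9 genes, in bp from the annotated 5′ end; squares are the first word (TTTGATCT), diamonds the second (GCGGGAA), open symbols lie on the opposite strand, and vertical bars are the strongest pooled candidate summits (not drawn for perm-2 and perm-4). The second word lies 21 to 36 bp downstream of the first, start to start, in cpg-1, egg-1, cbd-1 and egg-2.

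The 20 words of 7 letters most raised at the other main-list promoter summits over windows 300 bp to either side were also looked for. At least 1 of them was in 71.1% of those summit windows, 22.1% of the flanking windows and 23.4% of promoters. The words were chosen for their excess in those same summit windows over those flanks, so this gap was fixed in advance. In the eggshell genes 6 of the 8 windows held at least 1, close to the share at the other summits. Both egg-3 and egg-1 held AAGGCGC, cpg-1 and chs-1 held CGCGAAA, and cpg-3, egg-3 and chs-1 held TACCGTA. The stretches at cbd-1 and egg-2 held none of the 20. The base composition of the 8 windows ranged from 21.9% G and C at egg-2 to 41.7% at chs-1, with a median of 36.1% against 41.1% at the other summits and 33.8% in promoters.

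The proteoglycan genes cpg-1 and cpg-2 had the strongest promoter peaks of the set. The authors' peak signal, which is comparable only within a list, was used with its rank in that list. The cpg-1 peak (WBGene00000465, chromosome III, 4489359 to 4491392, plus strand) had a signal of 633 and rank 7 of 2464 in the replicate 1 list, and 359 and rank 12 of 1811 in the replicate 2 list. In the pooled main list it had a signal of 995 and rank 9 of 2777, which was also ninth among the 1955 genes ordered by their strongest promoter summit. Its summits lay at -236 bp in replicate 1 and -227 bp in replicate 2, 9 bp apart. For cpg-2 (WBGene00015102, chromosome III, 7102092 to 7103990, minus strand) the signal was 296 with rank 90 in replicate 1, 251 with rank 48 in replicate 2 and 550 with rank 73 in the pooled list. Its summits were 13 bp apart, at -246 and -259 bp. Both genes thus stood within the strongest 100 peaks of every thresholded list that was used.

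The third proteoglycan gene, cpg-3 (WBGene00011063, chromosome I, 7244937 to 7246295, plus strand), was called in replicate 1 alone. There its summit at -46 bp had a signal of 61.3 and rank 1834 of 2464. A second, weaker summit of replicate 1 lay at 164 bp, with a signal of 5.0. In replicate 2 the strongest candidate in the window, at -14 bp, had a signal of 25.8 and rank 8154 of 34645 in the ranked list, which holds candidates before thresholding. The pooled candidate at -47 bp had a signal of 81.4 and rank 2643 of 67021. Its −log10 irreproducible discovery rate (IDR) was 1.21, below the value of 2 that every main-list peak reached. This measure is high mostly for peaks that rank alike and high in both inputs. The summit also lay in the promoter window of the divergent gene dhp-1, whose annotated end is 969 bp upstream of the 5′ end of cpg-3.

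The chitin synthase gene chs-1 (WBGene00000496, chromosome I, 7554855 to 7559916, plus strand) had a peak closer to its annotated 5′ end than the other 5 main-list genes. That end lies 146 bp before the start codon in chs-1 and only 1 to 4 bp before it in the other 5. The distances therefore depend on where the 5′ end is annotated, and the order does not hold from the start codon. Its signal was 244 with rank 150 in replicate 1, 197 with rank 98 in replicate 2 and 451 with rank 110 in the pooled list. The summits lay at -51, -45 and -55 bp, so that the replicates were 6 bp apart. They fell in the 301 bp between chs-1 and T25G3.1, which lies upstream on the same strand.

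The related oocyte receptor genes egg-1 and egg-2 differed in their peaks. The egg-1 peak (WBGene00015083, chromosome III, 5728180 to 5730159, plus strand) had a signal of 198 with rank 236 in replicate 1, 138 with rank 219 in replicate 2 and 338 with rank 231 in the pooled list. Its summits at -174 and -160 bp were 14 bp apart. The egg-2 summit (WBGene00019811, chromosome III, 7058527 to 7060583, minus strand) lay at almost the same distance, -162 bp, and had a signal of 57.1 with rank 1986 of 2464 in replicate 1. In replicate 2 the candidate at -157 bp, 5 bp away, had a signal of 20.04 and rank 16290 of 34645, with a −log10 IDR of 0.182. In the ranked form of the main list egg-2 had a signal of 77.9, rank 2813 of 67021 and a −log10 IDR of 0.194. In the ranked form of the other pooled list, whose 2 inputs are not the replicates themselves, the value for the same peak was 2.72, and egg-2 was retained there at rank 2554 of 3082. The candidate of each replicate thus sat within 5 bp, while its rank differed between the replicates.

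For the cortical pseudophosphatase gene egg-3 (WBGene00009701, chromosome II, 10882408 to 10884441, minus strand) the signal was 133 with rank 535 in replicate 1 and 214 with rank 582 in the pooled list. It was absent from the thresholded list of replicate 2, although the candidate there, at -165 bp, had a signal of 84.4 and rank 717 of 34645. Its −log10 IDR was 0.993. The summits of the replicates were 33 bp apart, and the pooled summit at -141 bp lay in the 263 bp between egg-3 and F44F4.3, which lies upstream on the same strand.

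Among the vitelline layer genes only cbd-1, which encodes a protein with chitin-binding domains, had a thresholded promoter peak. The cbd-1 peak (WBGene00010351, chromosome IV, 11372991 to 11377627, plus strand) had a signal of 151 with rank 416 of 2464 in replicate 1, 83.3 with rank 699 of 1811 in replicate 2 and 223 with rank 535 in the pooled list. The summits of both replicates were at the same base, -190 bp, and the pooled summit was at -174 bp. The genes perm-2 (WBGene00016636, chromosome IV, 1126790 to 1128865, plus strand) and perm-4 (WBGene00016638, chromosome IV, 1121494 to 1125107, minus strand) are divergent neighbours with 1682 bp between them. The main-list summit nearest to their 5′ ends was 32430 bp from perm-2 and 30747 bp from perm-4. In the ranked list of replicate 1 the strongest candidates in their windows had signals of 16.6 (rank 23671 of 41183, inside perm-2) and 11.3 (rank 31387, inside perm-4). In that of replicate 2 both windows held the same candidate between the genes, with a signal of 9.4 and rank 34580 of 34645. A ranked candidate is a weak criterion, as 53.5% of all protein-coding genes had one in the ranked form of the main list, 40.6% in that of replicate 1 and 40.9% in that of replicate 2.

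**Figure D2:**
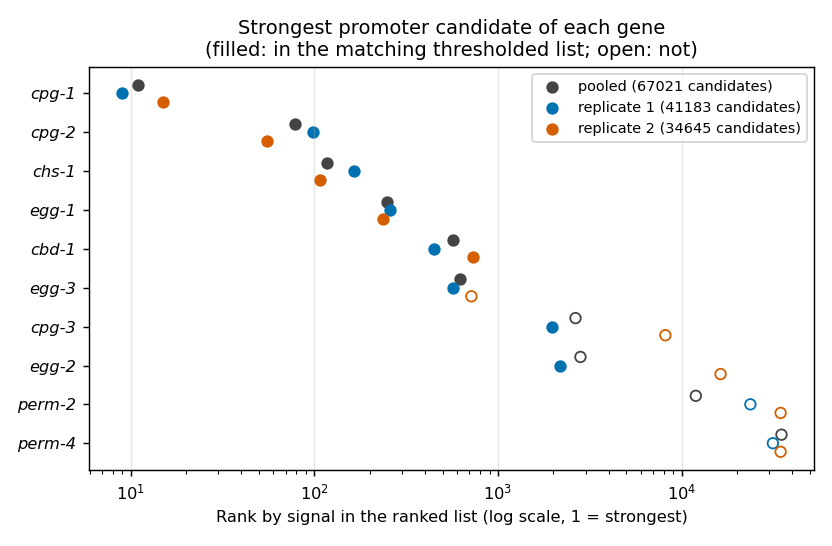
Rank by signal (log axis, 1 is the strongest) of the strongest candidate in the promoter window of each gene in the ranked lists of the pooled set, replicate 1 and replicate 2; filled points are in the matching thresholded list and open points are not. From cpg-1, at rank 9 in replicate 1 and 15 in replicate 2, the genes run to perm-4 at 31387 and 34580.

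Across the 10 genes the replicates gave much the same order. In the ranked list of replicate 1 the order was cpg-1, cpg-2, chs-1, egg-1, cbd-1, egg-3, cpg-3, egg-2, perm-2 and perm-4, with ranks from 9 to 31387. Replicate 2 exchanged only cbd-1 (rank 733) and egg-3 (rank 717), and its last candidate was shared by perm-2 and perm-4. Every main-list peak had a −log10 IDR of at least 2, while its signals went down to 2.65. A further 91 ranked candidates also reached 2 but were not in the main list, so this value alone does not define it. Of the 6 genes in the main list egg-3 had the lowest −log10 IDR, 4.83, and of the 4 outside the list cpg-3 had the highest, 1.21. In the main list the median signal of the 6 genes was 395, against a median of 144 and an upper quartile of 224 for the strongest promoter summits of all 1955 genes. The 6 were all above that median and 4 of them were above that quartile. Their summits lay at -248 to -55 bp, with a median of -172.5 bp, while the median over the 1955 genes was -256 bp with quartiles of -457 and -137 bp.

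**Figure D3:**
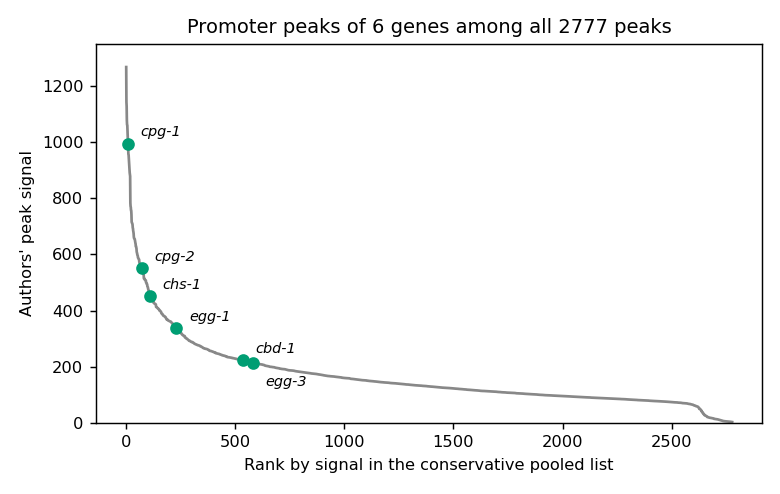
The authors' signal of every peak in the conservative pooled list against its rank, with the promoter peaks of 6 genes marked. They run from cpg-1 with 995 at rank 9 to egg-3 with 214 at rank 582 of 2777, on the left part of the curve.

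The 5 genes called in both replicates (cpg-1, cpg-2, cbd-1, egg-1 and chs-1) had summits 0 to 14 bp apart. The replicate peaks of each gene overlapped by at least 51.4% of the longer peak. A summit in both replicate lists was found for 5.88% of all protein-coding genes (1174). By list, the share of all genes was 9.08% in replicate 1, where 8 of the 10 genes had a summit, and 6.55% in replicate 2, where 5 had one. The other pooled list, with 10.5% of all genes, held 7 of the 10.

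**Figure D4:**
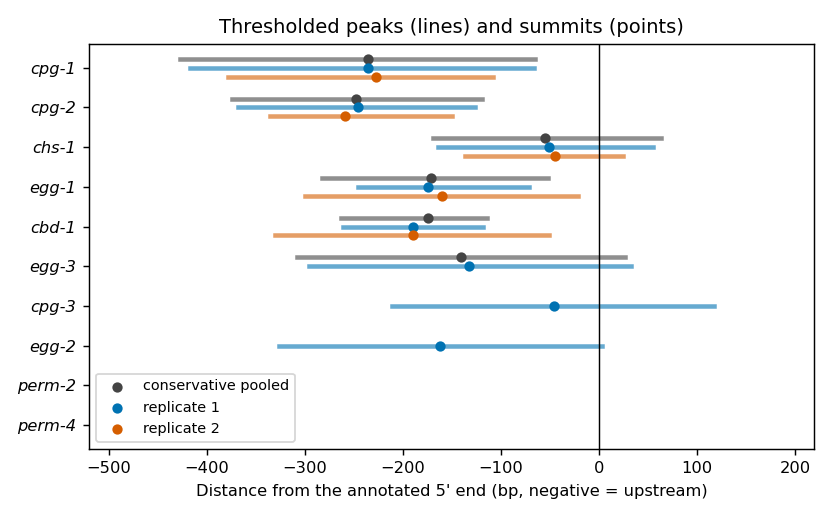
Thresholded peaks (lines) and their summits (points) in bp from the annotated 5′ end, in the conservative pooled list and in each replicate's list; genes are in the order of their rank. The summits of 5 genes lie within 14 bp of each other in both replicates, cpg-3 and egg-2 have a peak in replicate 1 alone, and perm-2 and perm-4 have none.

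Besides their promoter peaks, cpg-1, cpg-2 and cbd-1 also carried a main-list peak at the other end of the gene. Each of these 3 genes encodes a protein with chitin-binding domains, but genes of other kinds, given below, also carried both peaks. At cpg-1 the summit (chromosome III, 4491438) lay 46 bp past the annotated 3′ end with a signal of 192.5 and rank 710. It was also called in replicate 1, at 38 bp past the end with a signal of 128.9, and had no counterpart within 100 bp of the end in the replicate 2 list. At cpg-2 the summit (chromosome III, 7102099) lay 7 bp inside the 3′ end with a signal of 241.1 and rank 440. The replicate 1 list had it 21 bp past the end with a signal of 138.4, and the replicate 2 list 8 bp inside the end with 98.79. A further, weak summit stood 212 bp inside cpg-2 with a signal of 27.42. At cbd-1 the summit (chromosome IV, 11377643) lay 16 bp past the end with a signal of 124.5 and rank 1463, and the replicates had it at 57 bp past the end (65.53) and 39 bp inside it (77.98). The distance of 100 bp and the feature itself were chosen after the values were seen.

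In the main list 1.28% of protein-coding genes (256) had a summit within 100 bp of their 3′ end and outside their own promoter window. The shares were 1.44% in the other pooled list and 0.916% in replicate 1, where the same 3 eggshell genes had one, and 0.796% in replicate 2, where cpg-2 and cbd-1 did. Among the other 1949 genes with a main-list promoter summit the share was 5.44%. The 3 summits lay in no promoter window of any protein-coding gene, which held for 0.711% of all genes. Both a promoter and a 3′ summit were also found at the maternal RNA-binding protein genes puf-11, pos-1, puf-3, car-1 and pie-1. The signals at their 3′ ends were 198.3, 184.1, 145.3, 112.8 and 102.6. The egg activation gene egg-4 had both as well, with 101.3 at its 3′ end, and so did the ribosomal protein gene rpl-7A with 185. These genes were picked after their values were seen. All 3 eggshell genes face a convergent neighbour: atf-7 ends 234 bp from cpg-1, ZK418.11 42 bp from cpg-2 and fbxb-76 543 bp from cbd-1. Convergent neighbours also follow cpg-3, egg-2, egg-3 and perm-2, at gaps of 608, 0, 4724 and 16807 bp, and the main list held no summit within 100 bp of the 3′ end of these 4. The cpg-2 summit therefore counted for ZK418.11 as well.

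Other genes of the eggshell and of egg activation were taken from a list of 43 symbols, written with earlier results of these data known. Of the symbols, 38 matched the annotation. Of these, 16 (42.1%) had a main-list promoter summit, beside the 9.79% of all genes, and their strongest summits had a median signal of 217. Because of how the list was written, nothing is read from the difference between these shares. Replicate 1's list held 15 of the 38 and replicate 2's list 12. The egg activation and oocyte cortex genes had a summit in 8 of 13 cases. Among these, egg-4 (signal 479.6) and egg-5 (400) encode near-identical phosphatase-like partners of EGG-3, and reads of such copies may be hard to place. A small RNA gene stood within 200 bp of the egg-5 summit. The maternal zinc finger genes oma-1 and oma-2 had 260.6 and 269.5, egg-6 232.2, the vesicle traffic gene rab-11.1 218.5, memi-1, a gene of the exit from female meiosis, 215.9 and the separase gene sep-1 104.8. Kinase gene mbk-2 and the sperm-supplied spe-11 were among the 5 without one.

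Barrier and lipid genes had a main-list summit in 3 of 8 cases, namely perm-1 with a signal of 428, perm-3 with 113.8 and the acyltransferase gene dgtr-1 with 96.73. Of 8 further genes of the cpg series, cpg-4 had a summit with 198.3 and cpg-8 with 99.25. Genes for chitin and its sugar precursor had one in 2 of 7 cases, C36A4.4 with 213.3 and the glucosamine-phosphate acetyltransferase gene gna-1 with 92.64. The second chitin synthase gene, chs-2, whose product acts in the pharynx, had none in any thresholded list. The yolk receptor gene rme-2 had a summit with a signal of 402 and its distant relative lrp-1 none. TTTGATCT was within 300 bp upstream of the 5′ end in 3 of these 38 genes (egg-4, gna-2 and perm-3), or 7.89%, beside 3.82% of all promoters. It was in 6 of the 10 eggshell genes, from whose sequences the word was picked. GCGGGAA was in 1 of the 38, perm-1, beside 3.34% of all promoters.

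A pair of further lists, also chosen with earlier results of these data known, gave the level in neighbouring functions. Of 22 maternal RNA-binding protein genes 17 (77.3%) had a main-list promoter summit, with a median signal of 258, and this list shares oma-1 and oma-2 with the one above. TTTGATCT was in 2 of these 22 promoters (puf-5 and nos-2) and GCGGGAA in 5 (mex-1, spn-4, puf-3, puf-5 and puf-11). The CPG proteins are chondroitin proteoglycans, and the other list held 17 genes for chondroitin and heparan sulfate synthesis. Of these 17, 2 (11.8%) had a main-list promoter summit. They were the heparan sulfate polymerase gene rib-2 with a signal of 757.5 and the galactosyltransferase gene sqv-3 with 115.3. Each word was in 1 of the 17 promoters, TTTGATCT in that of sqv-8 and GCGGGAA in that of sqv-2. The share of the synthesis genes was close to the 9.79% of all protein-coding genes, and the rib-2 peak, at rank 23 in the main list, stood between those of cpg-1 and cpg-2. No difference between these lists was tested.

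**Figure D5:**
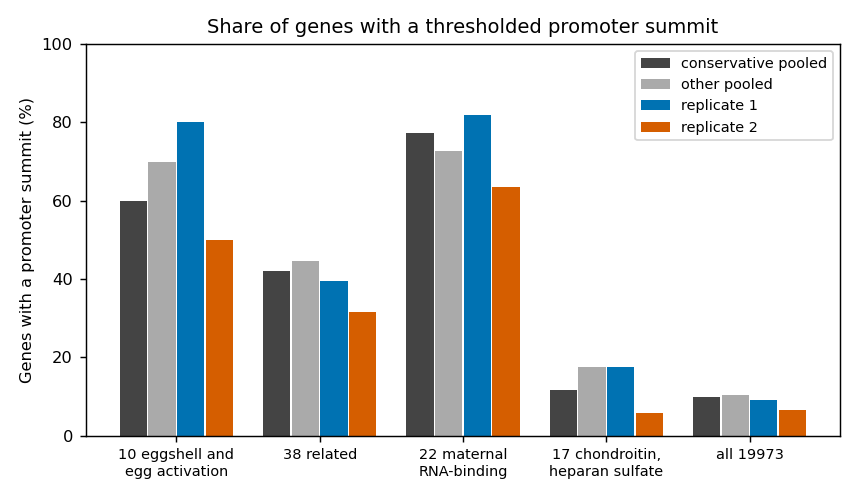
Percentage of genes with a thresholded promoter summit, for the 10 eggshell and egg activation genes, 38 related genes, 22 maternal RNA-binding protein genes, 17 genes of chondroitin and heparan sulfate synthesis and all 19973 protein-coding genes; bars are the 4 lists and have no error. In the conservative pooled list the shares are 60%, 42.1%, 77.3%, 11.8% and 9.79%.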

How the data were processed

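Peaks from anti-GFP ChIP-seq of whole young adult worms were used as the authors deposited them: per the labels and file descriptions, on build ce11 (WBcel235), from the alignments of 2 replicates and a control. Which aligner and caller were used is not given in the sources used here. Each of 4 thresholded lists has a ranked form. The signal of each peak, as deposited by the authors, was compared within a list only. The ranked lists deposited by the authors also give −log10 of the global IDR.

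Coordinates are 1-based. Summits (peak start plus offset) were given to every protein-coding gene whose window held them, with genes from Ensembl release 115 and sequence from RefSeq WBcel235 (Python 3.11.15, pandas 2.3.3). The procedure was tested on simulated data and gave back 200 of 200 planted genes. Members and gene lists were chosen with earlier results of these data known. The other genes named are those of the related list with a main-list summit, neighbours of a member summit, and genes singled out after their values were seen. With 1 group of 2 replicates no test was made, and peaks and genes are not replicates. A control named in the labels was not analysed here, so sites that appear with any tagged protein cannot be told apart from sites of this one. The symbols cpg-5, cpg-6, cpg-10, cpg-21 and syn-4 had no match. The sequences at the summits of cpg-2, cpg-3 and chs-1 are not reported here.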

Additional observations from a re-analysis of the deposited data

How the results depend on the processing

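The count of 6 eggshell genes with a main-list promoter summit was unchanged, and the same 6 genes were found, with the stronger 1388 peaks, windows starting 500 or 2000 bp upstream, the 5′ end of any transcript, the nearest 5′ end only, the peak interval in place of the summit, and with small RNA gene summits left out. The count was 7 in the other pooled list and ranged from 5 to 8 when either replicate was left out. For the related genes the range without either replicate was 12 to 15, and for all protein-coding genes 6.55% to 9.08%. The related count of 16 was less stable than that of the eggshell genes. It was 12 with windows starting 500 bp upstream, 12 with the nearest 5′ end only and 11 with the stronger 1388 peaks. Windows starting 2000 bp upstream gave 18. With every ranked candidate the values were 10 eggshell genes, 31 related genes and 53.5% of all genes, and the stronger 1388 peaks alone gave 5.63% of all genes. The peaks shared by both replicates covered 5 genes with an overlap of at least 1 bp and also with at least 50% of each peak. The percentile of cbd-1 by signal was 80.8 in the main list, 83.2 in replicate 1 and 61.5 in replicate 2, an SD of 15.3, while for cpg-1, cpg-2, egg-1 and chs-1 the SD between replicates was 0.257 to 1.77. With windows of 101 bases, chosen after seeing the data, TTTGATCT was in 6 member windows and GCGGGAA in 3 in place of 5. No paired analysis was possible because there is 1 group. The lists give no depth, so a gene without a peak, such as perm-2, was not detectable as bound here, which does not show that it is unbound.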
